A study of Danio rerio with 4 samples.

Results

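The genes described here are 9 zebrafish genes known for messenger RNAs that the oocyte makes and stores in the egg, namely zar1, zar1l, cth1, slbp2, mos, wee2, zp3b, org and ca15b. They were chosen by name, as a fixed list of oocyte and egg genes matched to Ensembl IDs through gene symbols. Each matched 1 ID, and all 9 were listed in both deposited tables, out of 27205 IDs in either table. RNA was measured by RNA immunoprecipitation and sequencing (RIP-seq) in zebrafish embryos of wild-type genotype that had all received mRNA encoding FLAG-tagged Ddx3xb, a DEAD-box RNA helicase. Anti-FLAG beads recovered the tagged protein with its RNA from embryos at 4 hours post-fertilization (hpf) and at 2 hpf, with 2 biological replicates per age in the labels. The injected mRNA is not restricted to a cell type by anything in the labels, and the sources used here do not give the number of embryos per sample. The descriptions of all 4 samples also carry the word control, without saying what they control for. The samples include neither an input nor a mock precipitate. Every value below is thus a level in the precipitate, and a gene's amount in the embryo and its recovery by the beads cannot be told apart. Nor can fewer cells of a type be told apart from less RNA per cell.

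Early cleavage in fish runs on RNA and protein laid down in the oocyte, because the embryo's own genome is largely silent until the mid-blastula transition. Stored egg messages are held by RNA-binding proteins that keep them silent or stable, are translated at meiotic maturation and after fertilization, and are cleared as zygotic transcription starts. The genes described here cover several steps of that life, from RNA-binding repressors and a decay factor to meiotic kinases and the coat of the egg.

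The deposited values are 1 mean RPKM per gene and age (read counts divided by gene length in kilobases and by library size), so no replicate spread stands behind any value, no SD or n can be given and no difference was tested. A difference is that of log2(RPKM + 1), the table labelled 4 hpf minus the table labelled 2 hpf, and the genes tested were those that reached 1 RPKM in at least 1 table. Low values stood in ratios that whole reads leave, which gave totals of 15003003 and 7913198 reads for the libraries behind the table labelled 4 hpf, and of 10115095 and 4874100 reads for those behind the table labelled 2 hpf. Which total belongs to which replicate is unknown. Early zygotic genes ran against the age labels: of 23 measured, 0 were at least 2-fold higher in the table labelled 4 hpf, against 33% of all genes tested, and 14 (60.9%) at least 2-fold lower, against 10.9%, with noto, a notochord transcription factor gene, at 9.21 RPKM at 4 hpf against 125 RPKM at 2 hpf. The 9 egg genes were all higher in the table labelled 4 hpf, but so were most genes, with a median difference of 0.66 over all genes tested. Without an input, a level in the precipitate does not show whether stored messages were cleared. All directions below therefore rest on the labels of the tables. Whether these labels fit the ages was not tested.

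All 9 genes had a higher RPKM at 4 hpf, but by very unequal amounts. The ratio of the mean RPKM at 4 hpf to that at 2 hpf ran from 1.095 for zar1 to 5.13 for zp3b. For zar1 the log2 ratio of 0.13 did not exceed its counting standard error, 0.14 to 0.20 for a gene model of 1 kb. The direction of zar1 is thus uncertain at that length. On the log2(RPKM + 1) scale, 7 of the 9 were at least 2-fold higher at 4 hpf, against 33% of the 13341 genes tested, and 0 were 2-fold lower, against 10.9%. Most genes had a higher RPKM at 4 hpf, with a median difference of 0.66 over all genes tested and of 1.29 over these 9. Measured from the median of all genes, 3 of the 9 (zp3b, cth1 and slbp2) lay 2-fold or more above it, against 7.85% of all genes and 17.6% of the genes in their range of mean level, and 0 lay 2-fold below, against 21.2% of all genes. That count of 3 depended on the setting. It was 0 among genes that reached 5 RPKM, whose median difference was 1.02, and 1 with a pseudocount of 0.1 RPKM or under 3 of the 4 scalings tried, against 4 with an equal sum and 7 with no filter.

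The level of a gene moves this background. Where only genes that reached 5 RPKM in 1 of the tables were kept, 51.2% were at least 2-fold higher at 4 hpf. Among the 4644 genes whose mean over both tables lay within the range of the 9, the median difference was 1.07, with quartiles of 0.52 and 1.53. Of the 9 genes, 4 lay inside those quartiles, 4 above the upper one (zp3b, cth1, slbp2 and org) and 1 below the lower one (zar1). A higher RPKM at 4 hpf was thus common among genes of like level, and 7 of the 9 lay above their median. The plot of levels by gene shows both tables.

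**Figure D1:**
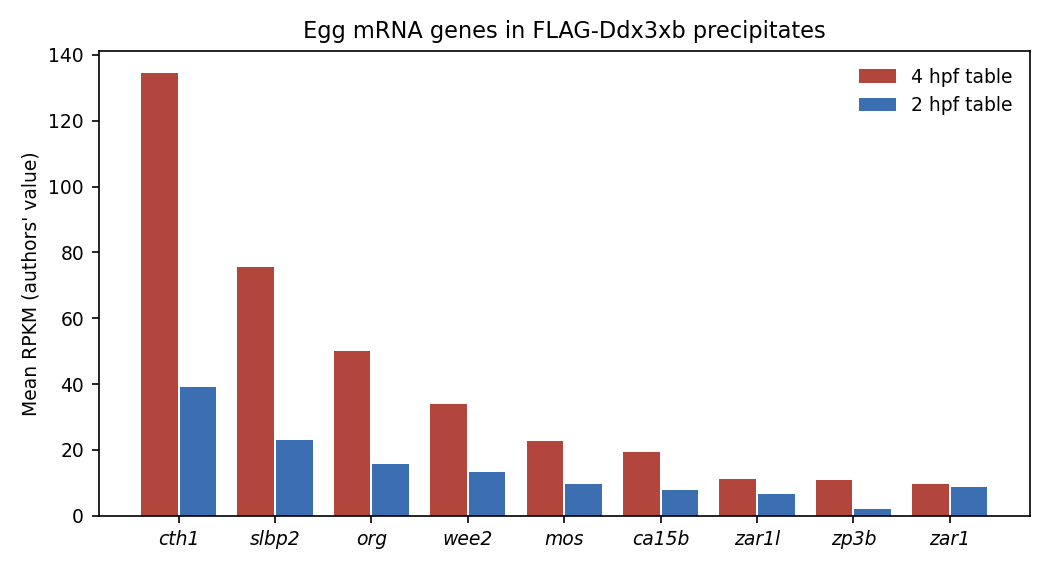
Mean RPKM of the 9 egg genes, ordered by level at 4 hpf. Red bars are the table labelled 4 hpf and blue bars the table labelled 2 hpf, each bar 1 authors' mean with no error. The red bar is the taller one for every gene, with zar1 almost level at 9.52 RPKM at 4 hpf and 8.69 RPKM at 2 hpf.

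The RNA-binding genes spanned nearly the whole range of responses. The gene cth1 (ENSDARG00000057328) encodes a protein with CCCH zinc fingers of the tristetraprolin family, whose members bind AU-rich elements and promote decay of their targets. It was the most abundant of the 9 at both ages, at 135 RPKM at 4 hpf and 39.0 RPKM at 2 hpf, a ratio of 3.45 and a difference of 1.76. It ranked 197 of 24904 listed genes at 4 hpf and 473 of 25804 at 2 hpf. Its difference was larger than that of 94.2% of all genes tested.

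The zygote arrest genes, zar1 and zar1l, encode related proteins with a zinc finger at the C terminus that bind maternal messages and restrain their translation in the oocyte. Both had the smallest differences of the 9. For zar1 (ENSDARG00000019706) the values were 9.52 RPKM at 4 hpf and 8.69 RPKM at 2 hpf, a difference of 0.12 that only 29.5% of all genes fell below. For zar1l (ENSDARG00000055973) they were 11.2 RPKM at 4 hpf and 6.52 RPKM at 2 hpf, a difference of 0.70 that lay near the median of all genes, above 51.7% of them. The level of zar1 was 0.85 times that of zar1l at 4 hpf and 1.33 times that of zar1l at 2 hpf, with counting standard errors of the ratio of up to 11.1% and 16.6% if each gene model is 1 kb long. At neither age is that error small beside the gap, so the order of the pair is uncertain at both. The log2 ratio between the ages (of RPKM without a pseudocount) was larger by 0.65 for zar1l than for zar1, with a counting standard error of at most 0.29 at the same length. Counting error shrinks with length and leaves out the spread between embryo batches, which these tables do not show. Both genes stood lower in the ranking of all genes at 4 hpf, with zar1 at rank 4376 at 4 hpf and 2893 at 2 hpf, and zar1l at rank 3943 at 4 hpf and 3778 at 2 hpf.

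Histone messages lack a poly(A) tail and end in a stem-loop that a stem-loop-binding protein holds. The gene slbp2 (ENSDARG00000069428) encodes the oocyte form of that protein, which in Xenopus keeps stored histone messages silent. It was the second most abundant of the 9, at 75.6 RPKM at 4 hpf and 23.0 RPKM at 2 hpf, with a ratio of 3.28 and a difference of 1.67. Together cth1 and slbp2 made up 57.1% of the summed RPKM of the 9 genes at 4 hpf and 49.2% at 2 hpf. The 9 genes summed to 368 RPKM at 4 hpf and 126 RPKM at 2 hpf.

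The kinase genes mos and wee2 act at different points of meiotic control. Mos starts the MAP kinase cascade that holds the mature egg in metaphase, and Wee2 is the oocyte member of the Wee1 kinases, which inhibit the cyclin-dependent kinase Cdk1. The level of mos (ENSDARG00000069744) was 22.8 RPKM at 4 hpf and 9.75 RPKM at 2 hpf, a difference of 1.14. The level of wee2 (ENSDARG00000012718) was 34.1 RPKM at 4 hpf and 13.4 RPKM at 2 hpf, a difference of 1.29. The pair kept similar proportions, with wee2 at 1.496 times the level of mos at 4 hpf and 1.37 times at 2 hpf.

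The gene zp3b (ENSDARG00000039828) encodes a zona pellucida glycoprotein of the egg envelope. It was at 10.9 RPKM at 4 hpf and 2.12 RPKM at 2 hpf. Its ratio of 5.13 and its difference of 1.93 were the widest of the 9, and the difference exceeded that of 97.0% of all genes tested. It also had the thinnest data. The mean RPKM and the read totals bound the reads behind a value, to between 172 and 326 per kb of gene at 4 hpf and between 20.7 and 42.9 per kb at 2 hpf, both libraries together. For a gene model of 1 kb, the counting standard error of the log2 ratio of 2.36 would be at most 0.34. The other 8 genes had at least 63.6 reads per kb at 2 hpf.

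Of the remaining genes, org (ENSDARG00000076474), named as an oogenesis-related gene, was at 50.0 RPKM at 4 hpf and 15.7 RPKM at 2 hpf, a difference of 1.61. The carbonic anhydrase family gene ca15b (ENSDARG00000040510) was at 19.2 RPKM at 4 hpf and 7.92 RPKM at 2 hpf, a difference of 1.18. Both were at least 2-fold higher at 4 hpf, and org lay above 90.7% of all genes tested.

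The order of levels was nearly the same in both tables. From the top, it was cth1, slbp2, org, wee2 and mos at both ages. Below them came ca15b, zar1l, zp3b and zar1 at 4 hpf, and zar1, ca15b, zar1l and zp3b at 2 hpf. The highest stood 14.1-fold over the lowest at 4 hpf and 18.4-fold at 2 hpf. Some neighbours in this order lay closer than counting error can separate at a gene length of 1 kb. At 4 hpf zar1l was 2.97% above zp3b, with a counting standard error of the ratio of up to 10.7%. At 2 hpf mos was 12.2% above zar1, and zar1 9.71% above ca15b, with counting standard errors of up to 14.9% and 15.7%. Further pairs exceeded that error by little. At 4 hpf zp3b was 14.2% above zar1, with an error of up to 11.2%. At 2 hpf ca15b was 21.4% above zar1l and org 17.5% above wee2, with errors of up to 16.9% and 11.9%.

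**Figure D2:**
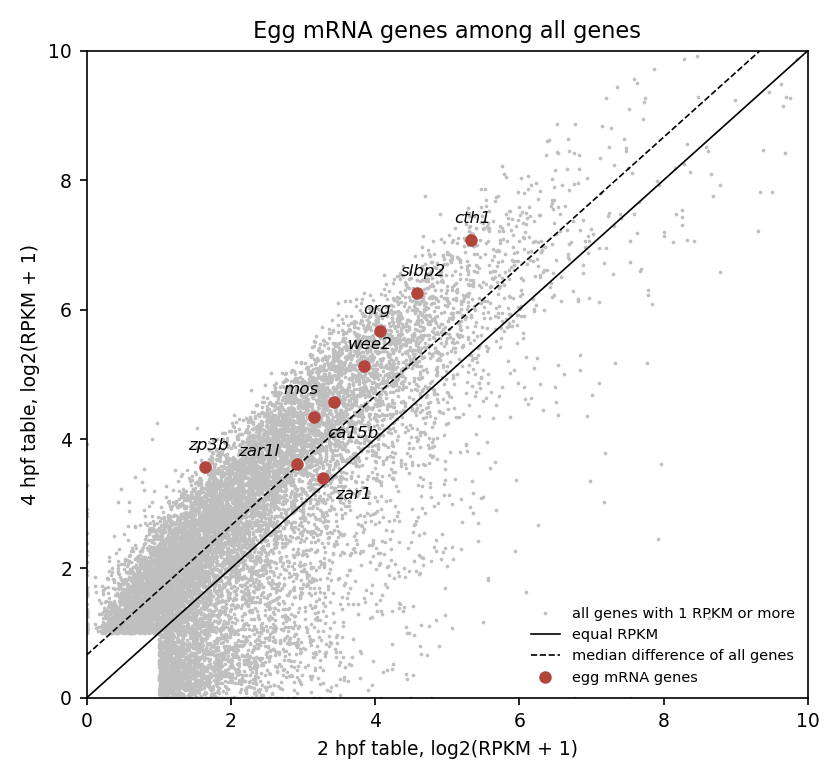
Log2(RPKM + 1) in the table labelled 4 hpf (vertical axis) and the table labelled 2 hpf (horizontal axis). Grey points are all genes tested, apart from 14 beyond the axes, and red points are the 9 egg genes. The solid line marks equal RPKM and the dashed line the median difference of 0.66. The gene zar1 is the one red point below the dashed line, and zp3b lies farthest above it.

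For each of the 9 genes, the gene of most similar values was sought by Euclidean distance over log2(RPKM + 1) in both tables, that is over 2 values. The closest to ca15b was cecr2 at a distance of 0.0019 (19.2 RPKM at 4 hpf and 7.93 RPKM at 2 hpf). The closest to wee2 was golm1 at 0.0053 (33.9 RPKM at 4 hpf and 13.4 RPKM at 2 hpf). The closest to zar1 was ube2g1b (9.49 RPKM at 4 hpf and 8.77 RPKM at 2 hpf), to zar1l NVL (11.3 RPKM at 4 hpf and 6.44 RPKM at 2 hpf), to cth1 CCDC124 (133 RPKM at 4 hpf and 38.8 RPKM at 2 hpf) and to slbp2 STRAP (74.0 RPKM at 4 hpf and 23.0 RPKM at 2 hpf). The closest to mos was MIDN (22.7 RPKM at 4 hpf and 9.94 RPKM at 2 hpf), to org proser3 (50.0 RPKM at 4 hpf and 15.5 RPKM at 2 hpf) and to zp3b atad3 (11.2 RPKM at 4 hpf and 2.12 RPKM at 2 hpf). With only a pair of values, many genes share a pattern: 27 lay within 0.1 of ca15b and 4 within 0.1 of cth1.

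Companions of the 9 genes were taken from lists of their pathways, with the 9 left out, and their counts are read against the 33% of all genes tested that were at least 2-fold higher at 4 hpf. Among genes that reached 5 RPKM that share was 51.2%, a stricter filter than that of the list counts unless stated. Of 19 measured genes of maternal mRNA binding and translational control, 11 (57.9%) were at least 2-fold higher at 4 hpf and 0 at least 2-fold lower, against 10.9% of all genes, with a median difference of 1.09 against 0.66 over all genes. Of the 15 that reached 5 RPKM, 9 were at least 2-fold higher, against 51.2% of all such genes. Their median was 1.18, against 1.02 over all such genes. The poly(A)-binding protein gene pabpc1a was at 361 RPKM at 4 hpf and 178 RPKM at 2 hpf. The gene eif4enif1, whose product 4E-T binds the cap-binding protein and represses translation, was at 44.1 RPKM at 4 hpf and 10.9 RPKM at 2 hpf, and IGF2BP3, an RNA-binding protein gene, at 107 RPKM at 4 hpf and 31.8 RPKM at 2 hpf. YBX1, a Y-box protein gene, was nearer to level, at 129 RPKM at 4 hpf and 102 RPKM at 2 hpf. YBX1 turned to -0.69 with an equal median ratio (tables scaled so that the median ratio of genes with at least 5 RPKM in both was 1), while the list's median was 0.17 there and that of all genes -0.083. Of the list, 0 genes were at least 2-fold apart there, against 11 as deposited. Of all 13341 genes tested, 476 were at least 2-fold higher there and 2964 lower. Quantile normalization and a scaling sum without the 100 highest genes each left 1 gene of the list at least 2-fold apart.

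Around cth1, 19 genes of CCCH zinc fingers, deadenylation and decapping were measured. Of these, 6 (31.6%) were at least 2-fold higher, near the 33% of all genes, and 0 at least 2-fold lower, against 10.9%. Their median of 0.59 lay just under the 0.66 of all genes, and turned to -0.22 with an equal median ratio and to -0.046 when the 100 highest genes were left out of a scaling sum. The median of all genes was -0.083 and 0.075 under these 2 scalings. Among genes that reached 5 RPKM the list's median lay further below, at 0.69 over the 14 of the list that were kept, against 1.02 over all such genes. PAN3, a gene of a deadenylase complex, was at 15.6 RPKM at 4 hpf and 3.83 RPKM at 2 hpf. The CCR4-NOT genes were at 10.6 RPKM at 4 hpf and 3.16 RPKM at 2 hpf for CNOT10, and at 57.0 RPKM at 4 hpf and 25.1 RPKM at 2 hpf for cnot3b. The gene tob1b, of the antiproliferative BTG/Tob family, was at 40.1 RPKM at 4 hpf and 16.5 RPKM at 2 hpf. ZFP36L2, of the same zinc finger family as cth1 and named after its values were seen, was at 18.1 RPKM at 4 hpf and 8.20 RPKM at 2 hpf, and was less abundant than cth1 at both ages.

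Around slbp2, 14 genes of histone mRNA processing and of the shared cleavage and polyadenylation complex were measured, 10 of them (71.4%) at least 2-fold higher at 4 hpf, against 33% of all genes, and 0 at least 2-fold lower, against 10.9%, with a median of 1.34. Of the 13 that reached 5 RPKM, 10 were at least 2-fold higher, against 51.2% of all such genes. Their median was 1.36, against 1.02 over all such genes. With an equal median ratio, quantile normalization and a scaling sum without the 100 highest genes, 1, 2 and 3 genes of the list were at least 2-fold apart. Of all 13341 genes tested, 476, 1369 and 952 were at least 2-fold higher there, and 2964, 2082 and 2556 lower. The gene casp8ap2, which encodes FLASH of the histone pre-mRNA cleavage complex, was at 131 RPKM at 4 hpf and 30.1 RPKM at 2 hpf. The polyadenylation factor gene fip1l1b was at 60.4 RPKM at 4 hpf and 15.1 RPKM at 2 hpf. Both had larger differences (2.09 and 1.93) than slbp2.

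Around mos and wee2, 23 genes of meiotic arrest and maturation were measured. Of these, 8 (34.8%) were at least 2-fold higher at 4 hpf, near the 33% of all genes, and 1 (4.35%) at least 2-fold lower, against 10.9%. Their median of 0.63 lay just under the 0.66 of all genes, and came to -0.083 with an equal median ratio, as did that of all genes. Among genes that reached 5 RPKM it lay further below, at 0.63 over the 19 of the list that were kept, against 1.02 over all such genes. The mitotic kinase gene plk1 was at 170 RPKM at 4 hpf and 56.3 RPKM at 2 hpf. The gene RPS6KA1, which encodes a ribosomal S6 kinase that acts downstream of Mos, was at 12.1 RPKM at 4 hpf and 2.33 RPKM at 2 hpf. The gene fbxo5, known for Emi1, an inhibitor of the anaphase-promoting complex, was lower at 4 hpf, at 132 RPKM against 185 RPKM at 2 hpf. The 1 gene at least 2-fold lower was WEE1, named for that reason after its values were seen, at 3.20 RPKM at 4 hpf and 8.54 RPKM at 2 hpf, a difference of -1.18. Its relative wee2 had a difference of 1.29, so this pair of related kinase genes had differences of opposite sign, and did so under all 4 scalings tried.

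The egg envelope family and the carbonic anhydrases differed in how many members were present at all. Over all IDs, 13341 of 27205 reached 1 RPKM in at least 1 table. Of 18 other listed IDs with a zona pellucida symbol, which take in 2 named ZPLD1 that are not egg envelope genes, 15 reached 1 RPKM. Of these 15, 9 (60.0%) were at least 2-fold higher at 4 hpf, against 33% of all genes, and 0 at least 2-fold lower, against 10.9%, with a median of 1.08. Only 4 reached 5 RPKM, and all 4 were at least 2-fold higher, against 51.2% of all such genes. The number at least 2-fold apart depended on the setting. It was 1 with an equal median ratio, 2 with a pseudocount of 5 RPKM and 12 with a pseudocount of 0.1 RPKM. In the same order, 476, 1907 and 6088 of the 13341 genes tested were at least 2-fold higher, and 2964, 371 and 2152 lower. The most abundant was zp3d.1, at 91.0 RPKM at 4 hpf and 19.8 RPKM at 2 hpf, followed by zp3f.1 at 23.2 RPKM at 4 hpf and 6.24 RPKM at 2 hpf. Both stood above zp3b at each age, and zp3d.1 also had a wider difference, at 2.14. These genes lie in families of similar copies, and reads that fit several copies may have been divided or dropped, which makes each single value uncertain. Of 14 other listed carbonic anhydrase IDs, 12 stayed under 1 RPKM in both tables, including the closest names to ca15b. These were ca15a, not listed at 4 hpf and at 0.0647 RPKM at 2 hpf, and ca15c at 0.0974 RPKM at 4 hpf and 0.122 RPKM at 2 hpf, both named after their values were seen. The measured ones were ENSDARG00000052644, given the symbol CA10, at 15.6 RPKM at 4 hpf and 5.44 RPKM at 2 hpf, and CA7 at 7.65 RPKM at 4 hpf and 2.63 RPKM at 2 hpf. The symbol CA10 sits on a further ID with under 0.1 RPKM.

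Of 25 other measured oocyte and egg genes, 16 (64.0%) were at least 2-fold higher at 4 hpf, against 33% of all genes, and 0 at least 2-fold lower, against 10.9% of all genes, with a median of 1.16. Of the 22 that reached 5 RPKM, 15 were at least 2-fold higher, against 51.2% of all such genes. With an equal median ratio, quantile normalization and a scaling sum without the 100 highest genes, 4, 2 and 3 genes of the list were at least 2-fold apart. Of all 13341 genes tested, 476, 1369 and 952 were at least 2-fold higher there, and 2964, 2082 and 2556 lower. The germ plasm organizer gene buc was at 295 RPKM at 4 hpf and 53.4 RPKM at 2 hpf, SYCP1, a gene of the synaptonemal complex, at 59.5 RPKM at 4 hpf and 10.1 RPKM at 2 hpf, and the egg nucleoplasmin gene npm2b at 130 RPKM at 4 hpf and 52.1 RPKM at 2 hpf. This list shares CELF1 and CCNB1 with the lists above. All 7 listed genes of ovarian follicle cells, which surround the oocyte, stayed under 1 RPKM, with sums of 0.628 RPKM at 4 hpf and 1.46 RPKM at 2 hpf. The highest of them at 2 hpf was amh, at 0.0790 RPKM at 4 hpf and 0.592 RPKM at 2 hpf. The tagged protein came from mRNA given to embryos, so these low values cannot tell whether follicle cells were carried over. Of 11 listed genes of differentiated tissues, 10 stayed under 1 RPKM in both tables. Over all IDs, 13341 of 27205 reached 1 RPKM in at least 1 table.

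**Figure D3:**
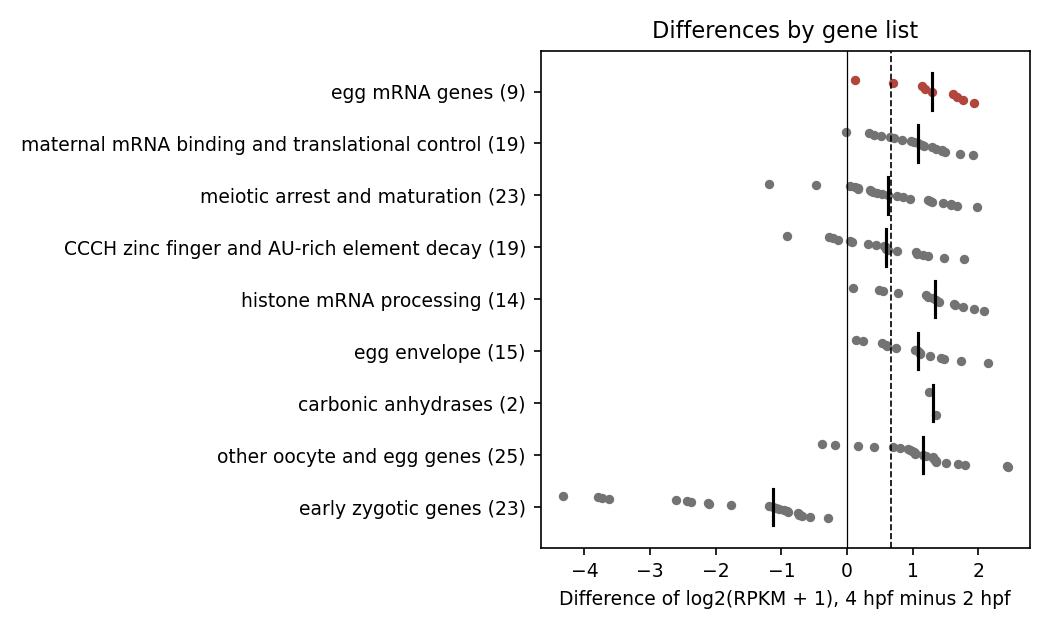
Differences of log2(RPKM + 1), 4 hpf minus 2 hpf, for the 9 egg genes (red) and for companion genes by list (grey), with the number of measured genes in brackets. Each point is 1 gene, black bars are medians, the solid line is 0 and the dashed line the median of all genes. The 9 egg genes have a median of 1.29, and the early zygotic genes, at a median of -1.12, all lie left of 0.

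The size and, for the zygote arrest genes, the sign of these differences followed how the tables were scaled to each other. Genes higher at 4 hpf made up 75.2% of all genes past the 2-fold threshold with RPKM as deposited and 85.6% after rescaling to an equal sum, but 39.7% under quantile normalization. They made up 27.1% where the 100 highest genes were left out of the sum used for scaling, and 13.8% where the median ratio of well-measured genes was set to be equal. Under each of these last 3, the 7 genes other than zar1 and zar1l kept a positive difference, but only zp3b stayed at least 2-fold higher. In the same order, 10.3%, 7.14% and 3.57% of all genes tested were at least 2-fold higher. With an equal median ratio the difference was 1.09 for zp3b, 0.74 for cth1 and -0.81 for zar1. The spread among the 9 genes depended less on the scaling. The gene zar1 had the lowest difference as deposited and under all 9 alternatives, and zp3b the highest under all except a pseudocount of 5 RPKM, where cth1 led. As deposited, the widest and the narrowest difference lay 1.81 apart, and with an equal median ratio 1.90 apart.

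**Figure D4:**
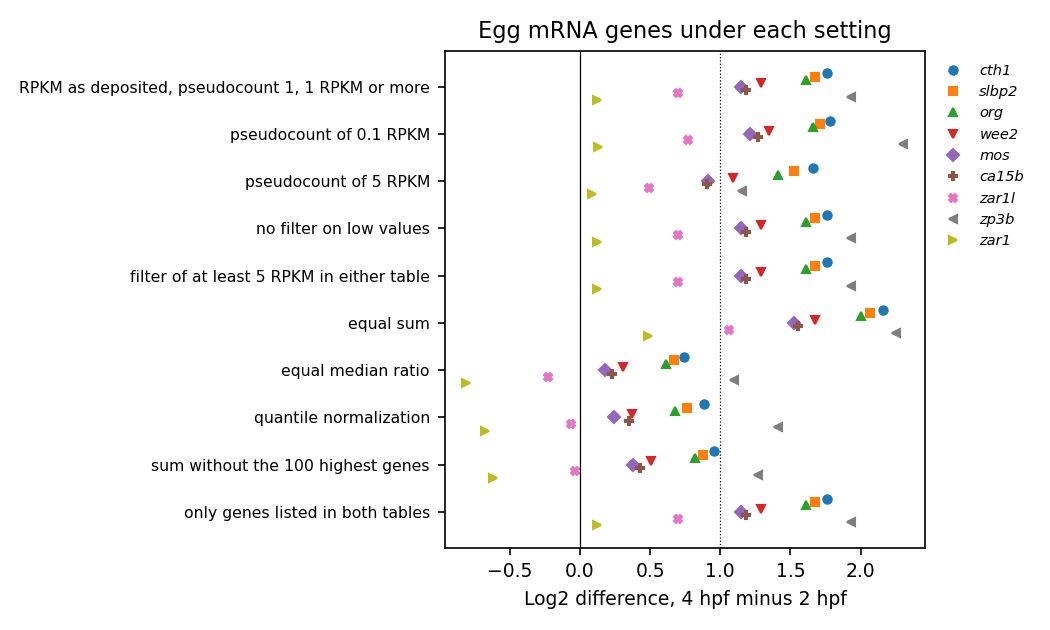
Log2 difference of each of the 9 egg genes, 4 hpf minus 2 hpf, under the values as reported (top row) and each alternative. Each symbol is 1 gene, the solid line is 0 and the dotted line the 2-fold threshold. The gene zar1 is leftmost in every row. Each scaling moves all genes in the same direction, though by unequal amounts, most so under quantile normalization.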

How the data were processed

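The authors deposited 1 RPKM table per age, each with an Ensembl gene ID and 1 value, and the table names call the value a mean over replicates. The tools named in the submitters' processing notes are TopHat2 2.1.1 and Bowtie, bedtools 2.16.2, MACS2 2.0.10, and the read trimmers Trimmomatic 0.36 and cutadapt 1.13, with build Zv9. The sources used here do not give the annotation, the counting or the strand. A gene in 1 table only was taken as 0 in the other. RPKM shares its denominator, so a few very abundant features lower all others.

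Symbols, some in human style, came from a table naming 20039 of 27205 IDs (73.7%). Differences of log2(RPKM + 1) were computed over all genes with Python 3.11.15 and pandas 2.3.3. Simulated differences, planted through the same formula, checked the arithmetic only and say nothing of the real values. With 1 mean per age there is no test. Read totals were solved from genes under 1.5 RPKM in both tables. A library's read step gave whole gene lengths, within 0.05, in 87.1% to 95.2% of the genes used. Counting errors cover reads only, which may include PCR copies.

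The genes and lists were chosen with earlier results of these data known. Named companions are, per list, at most 2 of the highest mean level and at most 2 of the widest difference that reached 5 RPKM, exceptions being marked; one that the rule picks is not reported here. The depth estimate and the group of like level were chosen after the data were seen. The settings varied were the pseudocount (0.1 or 5), the filter (none or 5 RPKM), 4 scalings, genes in both tables only, and a 4-fold threshold. Sequences and genome positions were not used here.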

Additional observations from a re-analysis of the deposited data

How the results depend on the processing

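No paired analysis was possible because the tables hold means alone, and for that reason no replicate could be left out either. The median difference of the 9 genes, 1.29 as deposited, was 0.31 with an equal median ratio, 0.37 after quantile normalization and 0.51 on the sum without the 100 highest genes. The median of all genes tested, 0.66 as deposited, was -0.083, 0.22 and 0.075 in the same order. A 4-fold threshold on log2(RPKM + 1) left 0 genes, though zp3b, at a difference of 1.93 there, had an RPKM ratio of 5.13. The share of all genes past the 4-fold threshold was not computed. Each of these 3 scalings left 1 of the 9 genes at least 2-fold higher instead of 7. Of all genes tested, 3.57%, 10.3% and 7.14% were at least 2-fold higher under them, against 33% as deposited. In the same order, zar1 turned to -0.81, -0.68 and -0.62, and zar1l to -0.23, -0.063 and -0.035. Relative to each setting's median of all genes, between 7 and 9 of the 9 genes lay above it under every alternative run. Among companions of the 7 pathway lists, genes at least 2-fold apart numbered 63 as deposited, 34 with a pseudocount of 5, 12, 15 and 14 under the 3 scalings, and up to 73 with a pseudocount of 0.1 and 76 with an equal sum. These companion counts take in both directions. Of all 13341 genes tested, 4409 were at least 2-fold higher and 1452 at least 2-fold lower as deposited. With a pseudocount of 5 these numbers were 1907 and 371, with a pseudocount of 0.1 they were 6088 and 2152, and with an equal sum 6409 and 1076. They were 476 and 2964 with an equal median ratio and 1369 and 2082 after quantile normalization. On the sum without the 100 highest genes they were 952 and 2556. Ranks within a table cannot change under these scalings, which keep the order of genes in a table, so they were no check. Depth limits zp3b most, with 20.7 to 42.9 reads per kb at 2 hpf.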
